A study of Mus musculus with 8 samples.

Results

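Lymphatic endothelial cells carrying Cd74, Ccl2 or Vcam1 were examined in tumors of the transplanted mouse melanoma MT-ret. They were selected on the measured levels of these 3 genes, so those levels are no finding. Eligible cells of the lymphatic endothelial (LEC) sort had fewer than 20 UMIs (unique molecular identifiers, 1 per captured RNA molecule) of the pigment genes Dct, Tyrp1, Pmel and Tyr together, and at least 1 UMI of the lymphatic genes Prox1, Lyve1 or Mmrn1. Of the 4407 cells of the sort, 279 were left out as pigmented and 109 for lack of a lymphatic UMI, which left 4019. In each cell 5 marker sets were scored as the mean log1p of UMIs per 10000 and z-scored over the eligible cells. A cell was taken when the set of Cd74, Ccl2 and Vcam1 had the highest z of the 5 and this z was over 1. One such cell was left out because it held 435 UMIs of the macrophage genes C1qa and C1qb. This gave 338 cells, called inflammatory-score cells here, which were 8.41% of the eligible cells (7.57 to 9.31%, exact Clopper-Pearson interval at the 95% level). They are set against the other 3680 eligible cells.

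All groups came from the same tumors. MT-ret tumor pieces had been grown on the flank in 10 C57BL/6N mice. Blood endothelial cells, abbreviated BEC, and LEC were sorted from the pool and sequenced with the 10x Chromium 3′ v2 kit. There was no untreated or tumor-free group and no allele or agent that differed between groups, and ages were not given in the labels. The labels list 4 libraries per sort, but the cell names carried the sort and no library, so each sort was 1 sample. No test, p-value or replicate check was therefore possible, and all differences below are descriptions. Intervals hold for counting error alone, at the 95% level.

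Endothelium answers inflammatory cytokines through a small number of well-studied routes. Tumor necrosis factor, interleukin 1 and lymphotoxin act through the transcription factor NF-kB, which switches on chemokines such as CCL2 and the adhesion molecules VCAM1 and ICAM1 that bind leukocyte integrins. Interferon gamma acts through IRF1 and the class II transactivator CIITA, and induces guanylate-binding proteins, immunity-related GTPases, CXCL9, CXCL10 and the machinery of MHC class II, to which CD74, the invariant chain, belongs. Lymphatic vessels drain dendritic cells towards lymph nodes along gradients of CCL21, and lymphatic endothelium in lymph nodes is known to present antigen.

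Few cells had UMIs of all 3 genes of the score. Among the 338 inflammatory-score cells, 17 had UMIs of all 3 genes, 56 of Ccl2 and Vcam1, 50 of Ccl2 and Cd74, and 4 of Cd74 and Vcam1. In the other 3680 eligible cells these counts were 1, 15, 36 and 7. Among the 338 cells the rest held 1 of the genes. Ccl2 was the sole gene in 183 cells, Cd74 in 26 and Vcam1 in 2. The score had no gap at its limit: the lowest cells inside had z of 1.01 and 1.01 and the highest outside 0.9996 and 0.9991, and 172 of the other cells lay between 0.75 and 1. A further 111 eligible cells had z over 1 with another set higher. The median z was 2.07 and the highest 8.65, so the cells form a range of a score and not a separate island. The plot of the scores shows this continuity.

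**Figure D1:**
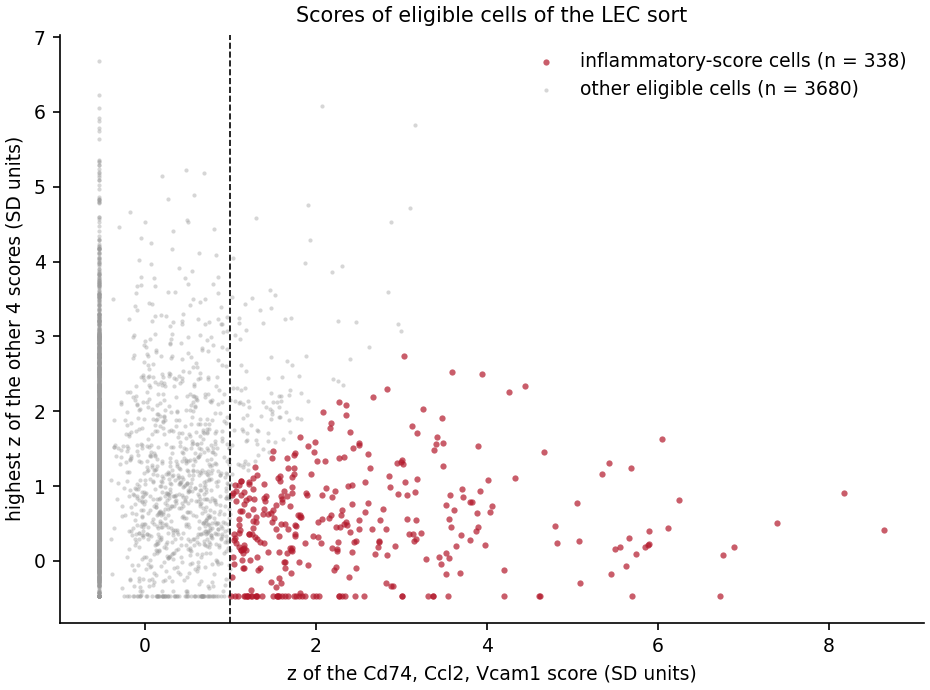
Each point is an eligible cell of the LEC sort, with its z for Cd74, Ccl2 and Vcam1 (horizontal, SD units) and its highest z among the other 4 marker sets (vertical, SD units); red points are the 338 inflammatory-score cells and grey points the 3680 others. The red points run on from the grey ones at the dashed limit of 1 and thin out up to a z of 8.65.

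Levels of the genes that chose the cells are given as description. Ccl2, a chemokine for monocytes, stood at 6662 CPM (UMIs of a gene per 1000000 UMIs of all genes, summed over a group of cells) in inflammatory-score cells and 139 CPM in other eligible cells. Cd74 stood at 412 CPM in inflammatory-score cells and 18.0 CPM in the others. Vcam1, which binds the integrin VLA-4, stood at 401 CPM in inflammatory-score cells and 4.35 CPM in the others. Single cells reached 577 UMIs of Ccl2 per 10000 among inflammatory-score cells, with quartiles of 8.42, 18.8 and 60.8, and 182 among the others. After every cell was thinned to 5000 UMIs, Ccl2 was seen in 88.8% of inflammatory-score cells and 19.5% of the others, Cd74 in 25.7% and 3.61%, and Vcam1 in 20.1% and 1.17%. Pigmented cells of the same sort (100 or more pigment UMIs, n = 226) were taken as a reference for free RNA, and 6.19% of them held a Ccl2 UMI, 1.77% a Cd74 UMI and 0.442% a Vcam1 UMI at the same depth. Their median depth before thinning was 30461 UMIs, and inflammatory-score cells had 13306.5 and other eligible cells 10408.5.

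The lymphatic label was checked with genes the rule did not use, since every eligible cell had to hold a UMI of Prox1, Lyve1 or Mmrn1. Pdpn, encoding podoplanin, stood at 415 CPM in inflammatory-score cells and 435 CPM in other eligible cells, and Flt4, the receptor of VEGF-C, at 304.5 and 338 CPM. In Ackr1-bearing cells of the BEC sort (2 or more Ackr1 UMIs, selected to hold no UMI of Prox1, Lyve1 or Mmrn1, n = 307) Pdpn stood at 0.145 CPM and Flt4 at 19.9 CPM. Of the 16 genes of a lymphatic identity list that were measured (10 CPM or more in either group, genes of the rule left out), 1 was at least 2-fold higher in inflammatory-score cells and 0 at least 2-fold lower, with a median log2 ratio of -0.27. That 1 gene was Nts, the precursor of neurotensin, at 6725 CPM in inflammatory-score cells and 3302 CPM in the others. Ccl21a, the chemokine that guides dendritic cells into lymphatics and is counted among near-identical gene copies, was at 17953 CPM in inflammatory-score cells and 25797 CPM in the others, a ratio of 0.696 (0.691 to 0.701). Marker lists of other cell types were detected in part. Of 7 pan-leukocyte genes 4 were detected and Ptprc, Cd52 and Rac2 were at 0 UMIs in the 338 cells; the list summed to 330 CPM in inflammatory-score cells and 314 CPM in the others, of which Arhgdib made up 328 and 311 CPM. The macrophage list summed to 102 CPM in inflammatory-score cells, with 12 of its 15 genes detected and Adgre1, Fcgr1 and Fcgr3 at 0, and 94.0 CPM in the others. Of 10 dendritic cell genes 3 were detected, with Flt3, Xcr1 and Itgax among those at 0, and the list summed to 292 CPM in inflammatory-score cells and 276 CPM in the others, of which Fscn1 made up 266 and 263 CPM. Batf3 of that list stood at 10.1 and 3.10 CPM. Of 10 mural cell genes 5 were detected, with Rgs5, Pdgfrb, Notch3, Abcc9 and Des at 0. The mural list summed to 108 CPM in inflammatory-score cells, at most 37.1 UMIs per 10000 in a cell, and 56.6 CPM in the others, at most 75.8. Its higher genes were Acta2 and Tagln, and its part in the results was not tested. A leukocyte filter that did not cover all genes of these lists kept 303 inflammatory-score cells and 3368 others. Ccl7 stood at 1848 CPM and H2-Aa at 80.9 CPM in the 303 cells, and at 63.8 and 6.31 CPM in the 3368. Of all 338 inflammatory-score cells, 105 had no UMI of the 7 pan-leukocyte genes and 227 had none of the 15 macrophage genes. A blood endothelial list of 12 genes summed to 1298 CPM in inflammatory-score cells and 1386 CPM in the others. Its median per cell was 8.82 and 7.72 UMIs per 10000. Of its 7 measured genes 4 were at least 2-fold lower and 0 at least 2-fold higher. One of the lower genes was Flt1, at 7.43 CPM in inflammatory-score cells and 33.3 CPM in the others. Barcodes shared between the sorts numbered 34, of which 1 belonged to an inflammatory-score cell.

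Over all genes the difference was narrow. Of 5896 genes that reached 20 CPM in the higher group, 101 (1.71%) were at least 2-fold higher in inflammatory-score cells and 50 (0.848%) at least 2-fold lower, on log2(CPM + 1) and leaving out the 22 genes of the rule. The median log2 ratio over all these genes was -0.04, and 5 to 95% of them lay between -0.60 and 0.58. For the gene lists below, which used genes at 10 CPM or more, the same shares were 1.47% higher and 1.5% lower of 7955 genes, with a median of -0.06. The higher genes included chemokines, adhesion molecules, MHC class II genes and interferon gamma targets, whereas type I interferon targets, glycolysis and the cell cycle stood near the level of all genes.

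Most of the measured chemokines were higher in inflammatory-score cells. Ccl7, a monocyte chemokine whose gene starts 8258 bases past the end of Ccl2 on chromosome 11 (GRCm38 chr11:82045712-82047525), stood at 1783 CPM in inflammatory-score cells and 64.5 CPM in other eligible cells, a ratio of 27.6 (26.5 to 28.8). It was found in 53.0% of inflammatory-score cells and 11.03% of the others at 5000 UMIs per cell, with 2.21% in pigmented cells. The neighbouring chemokine genes Ccl8, Ccl11 and Ccl12 stood at 3.43, 0 and 0.572 CPM in inflammatory-score cells and 5.51, 1.56 and 0.960 CPM in the others, so the levels of these neighbours were not higher with Ccl2. Cxcl1, a neutrophil chemokine, stood at 161 CPM in inflammatory-score cells and 26.9 CPM in the others, and Cxcl16, a transmembrane chemokine, at 20.01 and 5.07 CPM. In the chemokine list 7 of 8 measured genes were at least 2-fold higher, with a median log2 ratio of 3.23, and the remaining gene was Ccl21a. Several of these rested on few cells: the top cell held 59.0% of the Cxcl2 UMIs of inflammatory-score cells, 37.6% of Ccl5, 32.4% of Cxcl10 and 25.8% of Cxcl9, the last 2 being ligands of the T cell receptor CXCR3. The atypical receptors Ackr2 and Ackr3, which clear chemokines, stood at 112 and 164 CPM in inflammatory-score cells and 103 and 135 CPM in the others.

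Adhesion molecules divided. Icam1, the ligand of LFA-1 and Mac-1 (GRCm38 chr9:21015985-21028817), stood at 307 CPM in inflammatory-score cells and 71.4 CPM in other eligible cells, a ratio of 4.29 (4.04 to 4.56). Selp, encoding P-selectin, stood at 109 CPM in inflammatory-score cells and 12.3 CPM in the others. These were the 2 of 11 measured adhesion genes at or past 2-fold, and the list's median log2 ratio was 0.02. Icam2, F11r and Pecam1 stood at 278, 525 and 299 CPM in inflammatory-score cells and 274, 486 and 363 CPM in the others. In the Ackr1-bearing cells of the BEC sort, where Ackr1 marks venules, the vessels through which leukocytes usually enter tissue, Icam1 was at a level like that of inflammatory-score cells (327 CPM) and Selp was higher (590 CPM). Vcam1 was at 66.3 CPM and Ccl2 at 9.43 CPM there, and Ccl7 at 0.726 CPM.

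**Figure D2:**
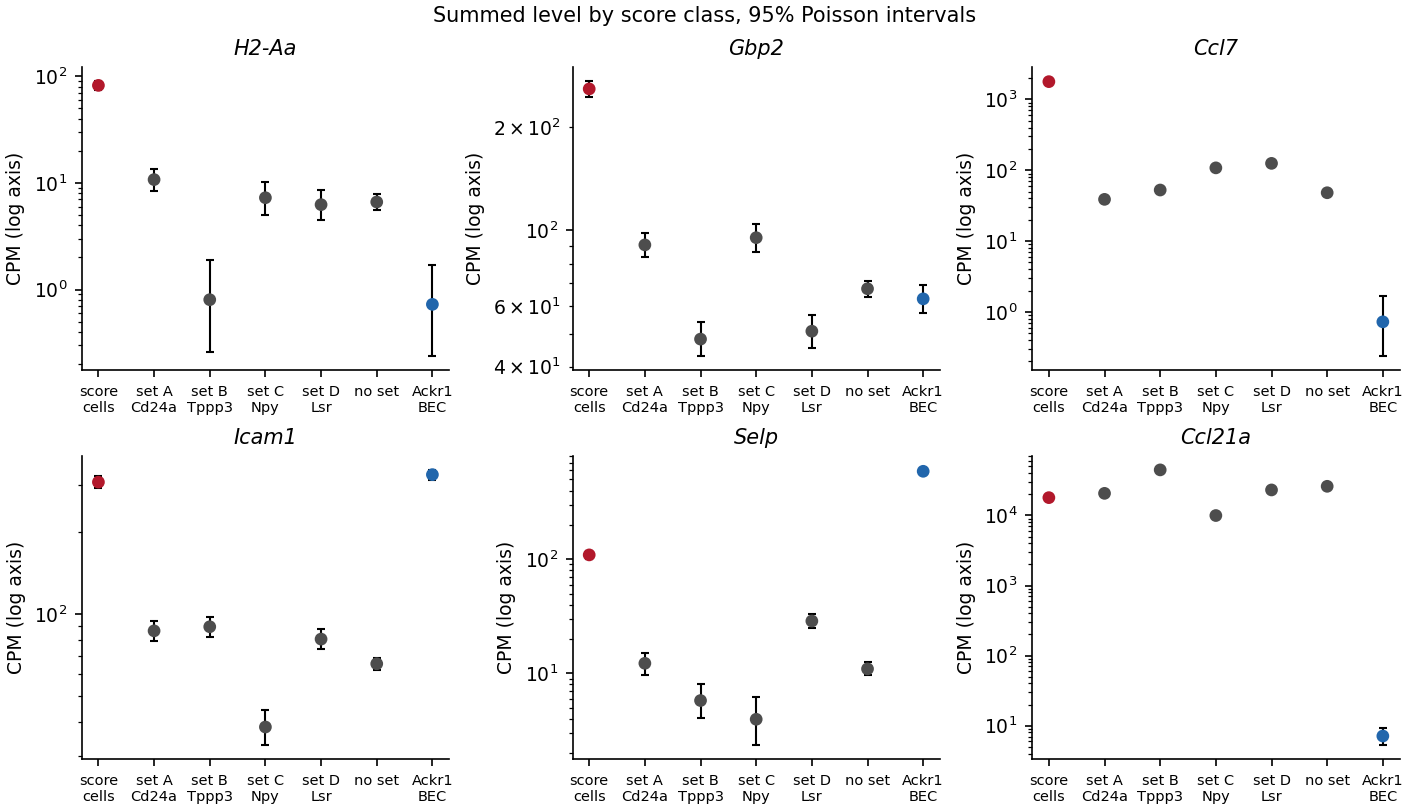
Summed level (CPM, log axes) of 6 genes in inflammatory-score cells (red, score cells), in eligible LEC cells led by the other 4 marker sets or by none (grey), and in Ackr1-bearing cells of the BEC sort (blue); bars are 95% Poisson intervals. Gbp2 and Ccl7 were highest in inflammatory-score cells, and Icam1 and Selp also reached high levels in the Ackr1-bearing cells (327 and 590 CPM).

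MHC class II genes stood together with Cd74. All 5 measured genes of the list apart from Cd74 were at least 2-fold higher in inflammatory-score cells, with a median log2 ratio of 2.92. This rested on Cd74 being in the score: with Cd74 left out of the set the median was 0.92, H2-Aa, H2-Eb1, H2-DMb1 and H2-Ab1 were at 0.89, 0.95, 0.55 and 0.42, under 2-fold, and H2-DMa remained past it at 1.34. H2-Aa, the alpha chain of the I-A molecule, stood at 82.1 CPM in inflammatory-score cells and 6.43 CPM in other eligible cells, and it was found in 13.9% and 1.44% of cells at 5000 UMIs. H2-Eb1 stood at 64.6 CPM in inflammatory-score cells and 5.001 CPM in the others, and the peptide-exchange gene H2-DMb1 at 29.5 and 3.04 CPM. Ciita, the class II transactivator, had 9 UMIs in 3 inflammatory-score cells, all of which carried Cd74, and 0 UMIs in the others, which allows up to 0.0670 CPM. H2-Aa had 0 UMIs in the 226 pigmented cells, which allows a share of up to 1.33% of cells. H2-Ab1, the I-A beta chain, differed from its partners: it stood at 130 CPM in inflammatory-score cells, but also at 135 CPM in cells led by the Npy, Ndufa4l2 and Pgf set, where H2-Aa was at 7.26 CPM. MHC class I and peptide loading genes had smaller ratios, with 4 of 16 at least 2-fold higher (H2-Q7, H2-Q6, Psmb10 and Psmb8) and a median of 0.78. B2m, the shared light chain, stood at 4859 CPM in inflammatory-score cells and 3402 CPM in the others. H2-Q6 and H2-Q7 are near-identical copies, so their split is uncertain.

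Interferon gamma targets stood further from the level of all genes than type I interferon targets. Of 17 measured interferon gamma targets 10 were at least 2-fold higher in inflammatory-score cells, with a median of 1.23. Without Cd74 in the score this median was 0.59, and Iigp1, Gbp4 and Igtp were under 2-fold at 0.58, 0.61 and 0.42. Gbp2, a guanylate-binding protein, stood at 259 CPM in inflammatory-score cells and 68.7 CPM in other eligible cells. Iigp1, an immunity-related GTPase with a near-identical relative, stood at 461 CPM in inflammatory-score cells and 140 CPM in the others, and the transcription factor Irf1 at 88.6 and 29.6 CPM. Of 15 type I interferon targets 0 were 2-fold higher and 2 were 2-fold lower, with a median of 0.15. The 2 lower genes, Rsad2 and Ifit3, had 5.72 and 6.67 CPM in inflammatory-score cells and 15.3 and 16.2 CPM in the others; with Ccl2 left out of the score, their log2 ratios were 0.36 and 0.074. Icam1 belongs to the interferon gamma list and to the NF-kB list.

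NF-kB targets, cytokines and genes of other kinds completed the list of named genes. Of 19 NF-kB targets, with Ccl2 and Vcam1 left out, 10 were at least 2-fold higher and the median was 1.09, against 0.74 with Ccl2 left out of the score. Relb, a subunit of NF-kB, stood at 124 CPM in inflammatory-score cells and 48.6 CPM in other eligible cells, and the inhibitors Nfkbie and Tnfaip3 at 64.0 and 30.7 CPM in inflammatory-score cells and 22.4 and 10.8 CPM in the others. Nfkbia, the best known inhibitor, stood at 1471 CPM in inflammatory-score cells and 742 CPM in the others. Csf1, the growth factor of macrophages, stood at 37.5 CPM in inflammatory-score cells and 7.52 CPM in the others. Plat, tissue plasminogen activator, stood at 446 CPM in inflammatory-score cells and 135 CPM in the others. Further genes among the 15 highest were Tnfrsf12a, the receptor of the cytokine TWEAK, Rnd1, a small GTPase, Clic4, Akap12, Arrdc4 and Pla2g16, with log2 ratios between 1.34 and 1.86.

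Dcn, which encodes the matrix proteoglycan decorin and is otherwise a fibroblast gene, was the third highest of the genes named by size, which needed 50 CPM and a UMI in 25% of the cells of the higher group. It stood at 592 CPM in inflammatory-score cells and 130 CPM in other eligible cells, and was found in 28.4% and 11.6% of cells at 5000 UMIs, with 3.54% in pigmented cells. It made up nearly all of the fibroblast list's 601 CPM in inflammatory-score cells, and the list summed to 170 CPM in the others. Pdgfra and Mfap5 were at 0 UMIs in inflammatory-score cells, and Col3a1 and Col1a1 were at 0.381 and 0.953 CPM there, against 14.0 and 5.16 CPM in the others. The direction of Col3a1 turned when the other marker sets were ignored, with a log2 ratio of 1.95. Acta2, a smooth muscle actin, stood at 79.5 CPM in inflammatory-score cells and 13.2 CPM in the others, with 22.5% of its UMIs in 1 cell. A stromal filter that did not cover every gene of the fibroblast list kept 218 inflammatory-score cells and 3083 others. In these, Ccl7 stood at 1258 and 61.4 CPM, Icam1 at 263 and 72.5 CPM, and H2-Aa at 62.5 and 5.91 CPM. Before this filter, 206 inflammatory-score cells and 3000 others had no UMI of the fibroblast list.

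Lower genes were fewer than higher genes at 20 CPM or more (50 and 101) and about as many at 10 CPM or more (119 and 117). The lowest of the genes named by size was Id2, an inhibitor of helix-loop-helix factors, at 34.5 CPM in inflammatory-score cells and 83.3 CPM in other eligible cells, with a log2 ratio of -1.25, or -0.40 with Ccl2 left out of the score. Thbd, encoding the anticoagulant thrombomodulin, stood at 59.7 CPM in inflammatory-score cells and 118 CPM in the others, and Tsc22d3, a glucocorticoid-induced gene, at 58.7 and 115 CPM. Ptn and Gas6, both secreted growth factors, stood at 109 and 119 CPM in inflammatory-score cells and 231 and 223 CPM in the others. The other 5 of the 10 lowest (Rab3il1, Hs3st1, G0s2, Htr2b and Sord) had log2 ratios between -1.15 and -0.91.

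**Figure D3:**
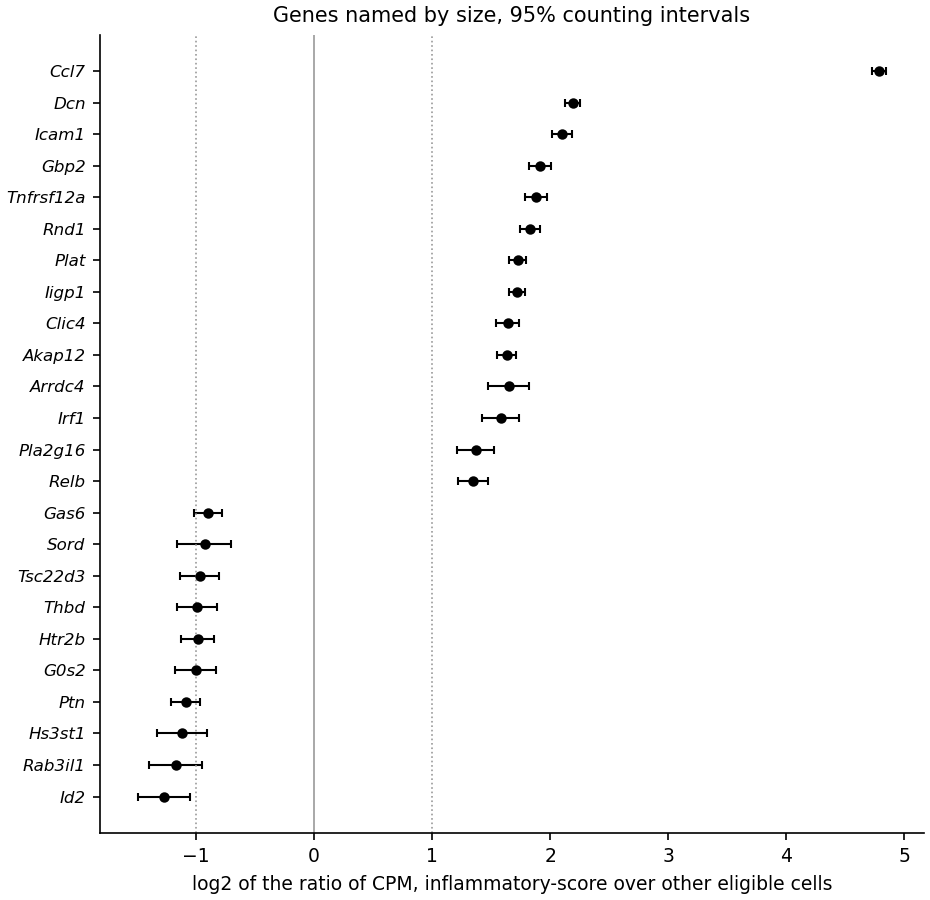
Log2 ratio of CPM (inflammatory-score cells over other eligible cells, without a pseudocount) for 14 of the 15 highest and the 10 lowest genes named by size; bars are 95% counting intervals and dotted lines mark 2-fold. Ccl7 stands apart from the rest of the higher genes, and the 10 lower genes lie near 2-fold.

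The inflammatory-score cells were not of 1 kind. They were split by whether a UMI of Cd74 or of Vcam1 was seen: 76 had Cd74 alone of the pair, 58 Vcam1 alone, 21 had both and 183 had neither. The split uses genes of the rule, so the values that follow concern other genes. Cells with Vcam1 alone were picked for having no Cd74 UMI, which bears on their MHC class II level. MHC class II genes summed to 1256 CPM (1187 to 1328) in cells with Cd74 alone and 7.56 CPM (3.46 to 14.4) in cells with Vcam1 alone. Interferon gamma targets summed to 4602 CPM in cells with Cd74 alone and 1652 CPM in cells with Vcam1 alone. Iigp1 stood at 1467 and 224 CPM in these subsets, Gbp2 at 576 and 215 CPM, and Igtp, another immunity-related GTPase, at 275 and 50.4 CPM. Pla2g16 followed the same order, with 201 CPM in cells with Cd74 alone and 47.0 CPM in cells with Vcam1 alone.

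The order was opposite for Ccl7, Icam1 and the sum of NF-kB targets. Ccl2, also a gene of the rule, moved with the split. A Ccl2 UMI was held by 50 of the 76 cells with Cd74 alone and 56 of the 58 with Vcam1 alone. In inflammatory-score cells with Ccl2 above its median NF-kB targets summed to 4294 CPM, and in the rest to 2172 CPM. The part of Ccl2 in the values that follow was not tested. Ccl7 stood at 140 CPM in cells with Cd74 alone and 4036 CPM in cells with Vcam1 alone. Icam1 stood at 92.4 CPM (74.4 to 114) in cells with Cd74 alone and 571 CPM (529 to 616) in cells with Vcam1 alone. Fst, encoding the activin antagonist follistatin, stood at 28.4 CPM in cells with Cd74 alone and 443 CPM in cells with Vcam1 alone, and it was detected in 50% of the cells with Vcam1 alone at full depth. NF-kB targets summed to 1869 CPM in cells with Cd74 alone and 4870 CPM in cells with Vcam1 alone. Ccl21a stood at 28969 CPM in cells with Cd74 alone and 8568 CPM in cells with Vcam1 alone, so the chemokine list as a whole, with Ccl21a in it, summed to 29696 and 13054 CPM. The lymphatic identity list summed to 39439 CPM in cells with Cd74 alone and 22034 CPM in cells with Vcam1 alone. Depth moved with the split: the median was 10990.5 UMIs in cells with Cd74 alone and 18405.5 UMIs in cells with Vcam1 alone, and its part in the result was not tested.

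The 21 cells with both genes had high levels of both groups of genes, with 1085 CPM of MHC class II, 4743 CPM of interferon gamma targets and 3761 CPM of NF-kB targets. Cxcl9 was highest in them at 528 CPM, and Ltb, a lymphotoxin subunit, at 264 CPM. They also had the most Dcn, at 1831 CPM. The 183 cells with neither gene, which the rule takes on Ccl2 alone, had 19.7 CPM of MHC class II (14.8 to 25.8), against 43.4 CPM (41.5 to 45.4) in other eligible cells; these cells were picked for having no Cd74 UMI, and the others were not. Their interferon gamma targets summed to 1097 CPM, against 938 CPM in other eligible cells. Their NF-kB targets summed to 2998 CPM, against 1582 CPM in the other eligible cells, and Ccl7 stood at 1367 CPM, against 64.5 CPM. The chemokine list, most of it Ccl21a, summed to 20440 CPM in them and 25942 CPM in other eligible cells.

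**Figure D4:**
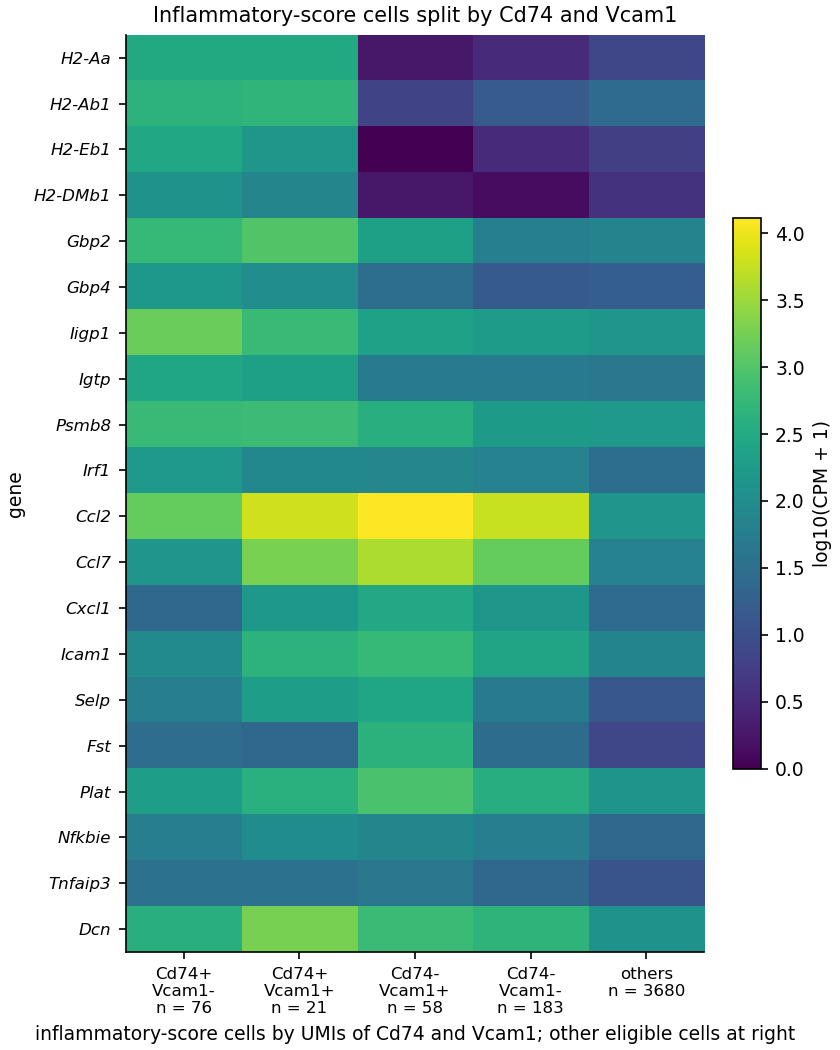
Level, as log10(CPM + 1) in color, of 20 genes (rows) in inflammatory-score cells split by UMIs of Cd74 and Vcam1 and in other eligible cells (columns, with n cells). MHC class II and interferon-induced genes in the upper rows are bright in the 2 columns with Cd74, and Ccl7 and Icam1 are bright in the 2 columns with Vcam1. Ccl7 was also higher in the column with neither gene than in other eligible cells.

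A limit on a mean over 3 genes favors cells rich in 1 of them, so the split was repeated over all eligible cells whatever their score. Cd74 alone was seen in 251 cells, Vcam1 alone in 117, both in 29 and neither in 3621. MHC class II genes summed to 573 CPM in cells with Cd74 alone and 11.8 CPM in cells with Vcam1 alone, with 30.4 CPM in cells with neither. NF-kB targets summed to 1629 CPM in cells with Cd74 alone and 3599 CPM in cells with Vcam1 alone, with 1660 CPM in cells with neither. Icam1 stood at 67.2 CPM in cells with Cd74 alone and 371 CPM in cells with Vcam1 alone, with 81.9 CPM in cells with neither. The order of the 2 groups of genes was the same, but the repeat still held the inflammatory-score cells. They were 76 of the 251 cells with Cd74 alone, 58 of the 117 with Vcam1 alone and 21 of the 29 with both. The repeat is therefore not independent of the score. Ccl2 stood at 487 CPM in cells with Cd74 alone and 7313 CPM in cells with Vcam1 alone. Cells with Vcam1 alone were picked for having no Cd74 UMI, so the split itself bears on their MHC class II level. The 29 cells with both genes had 776 CPM of MHC class II genes and 3368 CPM of NF-kB targets. Icam1 was not higher in cells with Cd74 alone than in cells with neither. The 2 marker genes did not exclude each other: at 5000 UMIs per cell Cd74 was seen in 16.2% of cells with Vcam1 (9.90 to 24.4%) and 5.17% of cells without it (4.50 to 5.91%).

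MHC class II genes and interferon gamma targets were both higher with Cd74 alone, and NF-kB targets with Vcam1 alone. The regulatory sequence before some genes of these lists is shown next. For each, the bases before the transcription start are given 5′ to 3′ on the gene's strand from RefSeq (GRCm38.p6), in lower case, with matches to 3 motifs in capitals on either strand: CCAAT (a Y box, as in MHC class II promoters), TTCNNTTTC (part of an interferon-stimulated response element) and GGGNNTTNC (part of a kappa B site). H2-Aa (chr17:34287824-34288073, minus strand) holds a kappa B-like match and a Y box. H2-Eb1 (chr17:34305617-34305866, plus strand) holds 2 Y boxes, Igtp (chr11:58199306-58199555, plus strand) an interferon element, and Cxcl1 (chr5:90890995-90891240, plus strand) 2 kappa B-like matches.
H2-Aa: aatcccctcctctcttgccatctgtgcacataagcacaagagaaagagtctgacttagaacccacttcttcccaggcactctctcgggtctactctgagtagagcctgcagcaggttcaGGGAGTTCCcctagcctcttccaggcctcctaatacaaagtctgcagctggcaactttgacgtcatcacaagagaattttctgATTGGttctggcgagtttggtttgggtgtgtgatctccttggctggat
H2-Eb1: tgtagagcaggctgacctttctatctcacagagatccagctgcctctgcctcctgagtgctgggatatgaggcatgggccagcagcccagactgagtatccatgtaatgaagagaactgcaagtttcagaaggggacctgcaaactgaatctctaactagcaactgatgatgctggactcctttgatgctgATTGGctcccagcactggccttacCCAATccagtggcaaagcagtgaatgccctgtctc
Igtp: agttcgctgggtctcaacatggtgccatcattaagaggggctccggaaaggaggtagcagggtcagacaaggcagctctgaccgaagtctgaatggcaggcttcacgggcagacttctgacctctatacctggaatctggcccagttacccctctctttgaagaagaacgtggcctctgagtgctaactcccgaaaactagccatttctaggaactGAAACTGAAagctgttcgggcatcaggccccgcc
Cxcl1: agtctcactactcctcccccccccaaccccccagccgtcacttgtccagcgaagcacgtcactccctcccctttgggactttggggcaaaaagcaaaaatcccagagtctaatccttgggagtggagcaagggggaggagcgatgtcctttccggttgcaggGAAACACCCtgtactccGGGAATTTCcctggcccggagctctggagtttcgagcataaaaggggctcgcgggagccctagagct

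Over the 250 bases before a start, CCAAT was found in 6 of 6 MHC class II genes with an entry and in 37.5% of all 27025 genes. TTCNNTTTC was found in 11 of 14 interferon gamma targets with an entry, in 1 of 19 NF-kB targets and in 8.18% of all genes. GGGNNTTNC was found in 12 of 19 NF-kB targets, in 4 of 14 interferon gamma targets and in 14.7% of all genes. Of the 4 promoters shown, none holds overlapping matches of different motifs. Of the 15 highest genes 6 had an entry, with GGGNNTTNC in 2, TTCNNTTTC in 1 and CCAAT in 3. The letters were set after other forms had been counted, so the shares are description only. The matches are letters in a window and were not measured as bound sites. Ccl2, Ccl7, Vcam1 and Cd74 were not matched in the table.

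The lists differed in how they followed the score over all cells. In cells with z at or under 0, 0 to 0.5, 0.5 to 1, 1 to 2, 2 to 3 and over 3, MHC class II genes summed to 28.4, 45.9, 91.5, 208, 314 and 488 CPM. NF-kB targets summed to 1506, 1543, 1846, 2245, 3051 and 5023 CPM over the same bins. Ccl7 stood at 37.2, 87.6, 86.9, 313, 1102 and 4467 CPM. Both MHC class II genes and Ccl7 were thus already higher in the bin from 0 to 0.5, and the highest levels of both lay above a z of 1. Cd74 and Ccl2 are part of the score that set the bins, so these shapes are description only. Type I interferon targets stayed between 2020 and 2571 CPM. The macrophage list stayed between 83.9 and 114 CPM, with no order over the bins. The lymphatic identity list stood at 35442 CPM in the lowest bin and 26544 CPM over 3. A list of 12 pan-endothelial genes stood at 3714 CPM in the lowest bin and 2328 CPM over 3. The mural list stood at 48.2 CPM in the lowest bin, 218 CPM from 2 to 3 and 196 CPM over 3. The bins also hold cells led by another marker set. The fibroblast list stood at 135 CPM in the lowest bin, 1275 CPM from 2 to 3 and 933 CPM over 3, of which Dcn made up 105, 891 and 926 CPM. Fst was at 22.2 CPM in the bin from 2 to 3 and 328 CPM over 3.

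**Figure D5:**
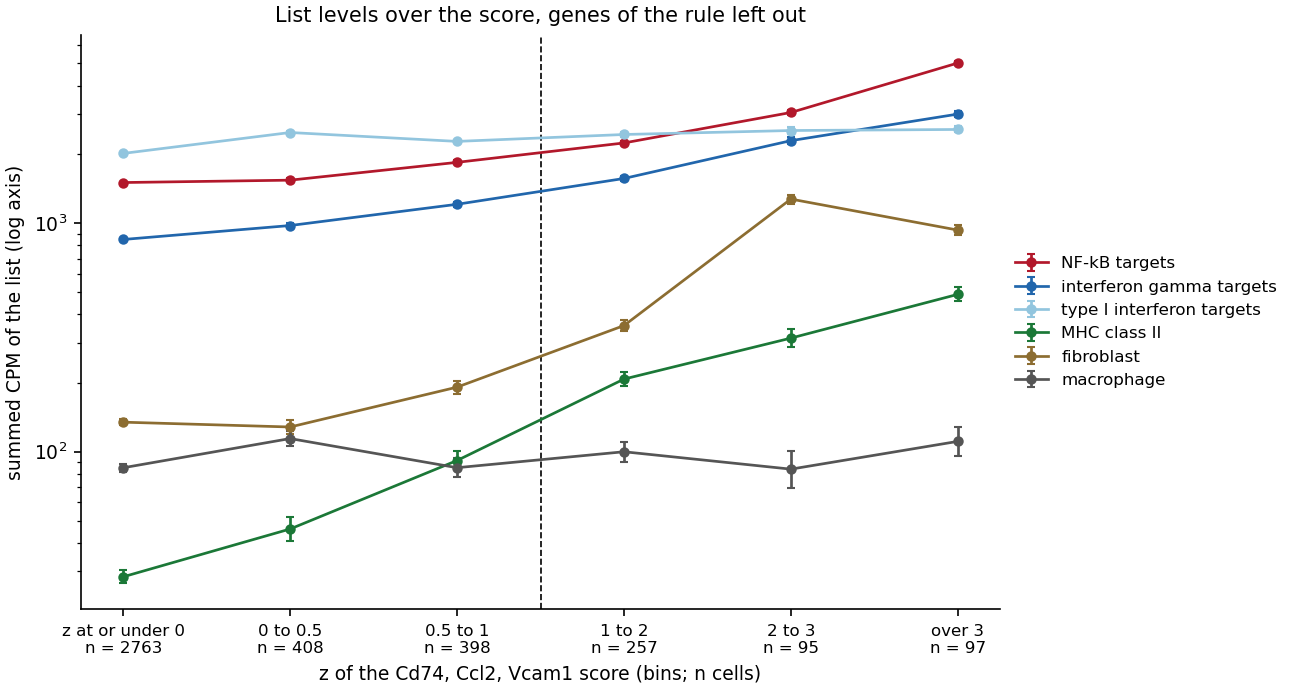
Summed CPM (log axis) of 6 gene lists, without the genes of the rule, over bins of the z for Cd74, Ccl2 and Vcam1; bars are 95% Poisson intervals and the dashed line marks the limit of 1. MHC class II stands at 28.4 CPM in the lowest bin and 488 CPM in the highest, and the macrophage list stays between 83.9 and 114 CPM.

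Among 4018 eligible cells the gene whose level per cell went most with the score was Ccl7, with a Spearman correlation of 0.31. The next were H2-Aa (0.19), H2-Q7 (0.19) and H2-Eb1 (0.18), which are weak correlations in sparse counts that share depth and are given as a description. Ccl2 was also present, at lower levels, in cells led by the other marker sets: 438 CPM with the Npy set, 196 CPM with the Lsr set, 137 CPM with the Tppp3 set and 67.6 CPM with the Cd24a set. Genes of the inflammatory class thus had a low level elsewhere in the lymphatic sort, and Selp was at 28.7 CPM in cells led by the Lsr set and 3.96 CPM in cells led by the Npy set.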

How the data were processed

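Raw UMI counts per gene and cell were used as deposited by the authors, in 1 matrix of 28692 genes and 7635 cells. Cell Ranger 2.1.1 and the build mm10 are named in the submitters' processing notes, and how cells were filtered was not given in the sources used here. Cells could not be assigned to a library, and the 4 libraries of each sort cannot be told apart. No doublet caller was run. UMIs were summed over cells as CPM, with exact Poisson intervals for levels, conditional binomial intervals for ratios and Clopper-Pearson intervals for shares. Log2 ratios used a pseudocount of 1 CPM. A UMI was worth 0.191 CPM in the inflammatory-score cells and 0.0223 CPM in the others; a count of 0 allows up to 3 counts.

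Named by size were the 15 highest and 10 lowest genes at 50 CPM or more, with a UMI in 25% of the cells of the higher group and no cell over 20% of its UMIs. All genes of the rule, the measured genes of 5 lists and the 4 most abundant genes of every other list were also named. Genes such as Fst, Igtp, Ltb, Tnfaip3 and Nfkbie were chosen after their values had been seen. The cells, the 32 gene lists and the comparisons were chosen with earlier results of these data known. Ratios and scores were tested on simulated data. Positions came from GENCODE M21. The letters of the promoter motifs were set after other forms, longer or of the same length, had been counted. Python 3.11.15, numpy 2.4.6, scipy 1.17.1, pandas 2.3.3 and matplotlib 3.10.9 were used. One of the 15 highest genes is not reported here.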

Additional observations from a re-analysis of the deposited data

How the results depend on the processing

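No paired analysis was possible because the cells carry no library number. The number of cells was 510 at a limit of z over 0.5, 248 over 1.5 and 176 over 2, 449 when the other scores were ignored, 277 without Ccl2 in the set (138 shared), 401 without Vcam1, and 378 after thinning to 5000 UMIs (303 shared). Genes at least 2-fold higher numbered 180 at z over 2, 216 with no minimum CPM and 64 at a minimum of 50 CPM. Genes at least 2-fold lower numbered 24 at z over 0.5, 174 at z over 2, 22 when the other scores were ignored, 27 without Cd74, 30 without Ccl2, 25 at a pseudocount of 5 CPM, 551 with no minimum, 11 at 50 CPM and 32 among genes seen in 10% of cells. The cause of these shifts was not tested. Of the 101 higher genes, 61 stayed at 2-fold without Ccl2 in the set and 72 without Cd74. At z over 0.5 the number was 69, at z over 2 it was 95, and in cells kept by the stromal filter 69. Log2 ratios that changed sign were Ndufa4l2 (0.14) and Col3a1 (1.95) when the other scores were ignored, Csf3 (-0.21), Col3a1 (2.51), Rsad2 (0.36) and Ifit3 (0.074) without Ccl2, and the marker genes Npy (1.28), Lsr (0.79), Postn (2.04) and Foxp2 (0.51) against cells with no score over 1. A further alternative, chosen after seeing the data, kept cells with under 3 UMIs of blood endothelial genes. It did not cover all 12 genes of the blood endothelial list. It kept 327 inflammatory-score cells, although 241 of the 338 held 5 or more UMIs of that list. Under it the median log2 ratio of the list was 0.13 and that of Esm1 0.074.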

Other observations

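Other gene groups in the inflammatory-score cells had smaller differences. Of 14 measured complement and acute phase genes 3 were at least 2-fold higher: the serpin Serpina3g, whose family has near-identical copies, at 63.1 CPM in inflammatory-score cells and 12.2 CPM in other eligible cells, the central complement component C3 at 44.6 and 18.8 CPM, and C2 at 44.0 and 20.2 CPM. Of 11 cytokine receptors 0 were 2-fold apart, among them the interferon gamma receptor chains Ifngr1, at 148 CPM in inflammatory-score cells and 110 CPM in the others, and Ifngr2, at 111 and 71.1 CPM. Lysosomal proteases of antigen processing had a median log2 ratio of -0.29, with 0 of 6 genes 2-fold apart, although MHC class II genes were higher. Co-signalling ligands had 0 of 6 genes 2-fold apart. Cd274, which encodes PD-L1, was not among the 6, because it lay under the minimum of 10 CPM. It was at 9.91 CPM in inflammatory-score cells and 3.10 CPM in the others. Genes known to respond to tissue dissociation had a median of -0.23, hypoxia genes -0.44 and glycolysis genes 0.04. The others include the cells led by the Npy, Ndufa4l2 and Pgf set, and the hypoxia median ran from -0.66 to 0.34 over the alternatives. Over bins of z of all eligible cells, the hypoxia list summed to 1331 CPM at or under 0, 1908 CPM from 2 to 3 and 1814 CPM over 3.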
